A study of Mus musculus with 3 samples.

Results

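The genes described are 8 early-response genes of the Fos and Jun families and their companions, taken by name from the 20368 genes of a single-cell RNA table of mouse prefrontal cortex. They are the Fos proteins Fos and Fosb, the Jun proteins Jun, Junb and Jund, the related factor Atf3, and the early-response genes Ier2 and Ier5. The tissue came from mice of both sexes killed on postnatal day 6, the same day as an inhalation exposure to sevoflurane, a volatile anaesthetic, at about 3%. Droplet libraries were made on the 10x Genomics Chromium platform, and 3 libraries form 1 group. No unexposed mice are among the samples, so every comparison is between cell classes of exposed tissue and none measures a response to the anaesthetic. Strain is not given in the sources used here, nor whether the libraries came from separate animals, so each p-value measures the spread between these libraries, which may be technical.

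Fos and Jun proteins pair through leucine zippers to form AP-1, a transcription factor that binds a short palindromic DNA element in promoters and enhancers. Most members are immediate early genes: their transcription needs no new protein, starts within minutes of growth factors, calcium entry, cytokines, flow or tissue handling, and fades as the messages are degraded. Jun proteins can pair with one another, Fos proteins need a Jun partner, and Jund is the member known for steady expression in resting cells. In brain, Fos is best known as a marker of recently active neurons, and it is also induced in glia and vessels.

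The promoters of Fos, Fosb, Junb and Atf3 are shown because these are the members that held TGACG, one arm of the cyclic AMP response element TGACGTCA. The sequences are RefSeq's for GRCm38.p6 and run from 250 bases before to 50 bases after the annotated start. Fos lies at chr12:85473640-85473939 on the plus strand. Fosb at chr7:19309996-19310295, Junb at chr8:84978699-84978998 and Atf3 at chr1:191183284-191183583 lie on the minus strand and are printed in the direction of transcription. Capitals mark TGACG, written CGTCA where it is on the opposite strand, and TATAAA.
Fos: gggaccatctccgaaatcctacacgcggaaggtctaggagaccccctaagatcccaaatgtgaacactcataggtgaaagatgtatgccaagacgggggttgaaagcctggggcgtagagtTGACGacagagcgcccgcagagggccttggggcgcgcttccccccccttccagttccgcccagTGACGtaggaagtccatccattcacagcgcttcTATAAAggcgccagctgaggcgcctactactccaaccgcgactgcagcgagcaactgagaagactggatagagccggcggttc
Fosb: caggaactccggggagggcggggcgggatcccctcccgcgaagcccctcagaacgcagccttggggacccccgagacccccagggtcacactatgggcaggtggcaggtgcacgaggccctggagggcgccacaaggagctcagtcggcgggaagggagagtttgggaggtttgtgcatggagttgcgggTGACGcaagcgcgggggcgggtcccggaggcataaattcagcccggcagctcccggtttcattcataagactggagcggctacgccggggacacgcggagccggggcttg
Junb: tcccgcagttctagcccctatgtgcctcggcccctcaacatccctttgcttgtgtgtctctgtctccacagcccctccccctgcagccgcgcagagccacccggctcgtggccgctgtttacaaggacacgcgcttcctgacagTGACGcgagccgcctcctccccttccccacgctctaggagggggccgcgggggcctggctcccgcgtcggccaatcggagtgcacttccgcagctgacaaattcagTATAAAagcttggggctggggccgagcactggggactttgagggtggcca
Atf3: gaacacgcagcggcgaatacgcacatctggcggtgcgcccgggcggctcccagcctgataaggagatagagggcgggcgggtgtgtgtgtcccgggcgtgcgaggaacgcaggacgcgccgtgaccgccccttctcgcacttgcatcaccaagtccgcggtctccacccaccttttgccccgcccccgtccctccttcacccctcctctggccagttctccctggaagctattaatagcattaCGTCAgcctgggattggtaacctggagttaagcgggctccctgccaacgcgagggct

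Fos held TGACG at bases -129 to -125 and again at -66 to -62, where -1 is the base just before the RefSeq start, and TATAAA at -33 to -28. Fosb held TGACG at -60 to -56, Junb at -106 to -102 and Atf3 at -7 to -3 on the opposite strand. Junb held TATAAA at 1 to 6, just inside the RefSeq start. Both strands were searched: TGACG was in 4 of the 7 members in the promoter table against 20.8% of all 32851 promoters of the same length, and TATAAA in 2 of 7 against 13.6%. The GC-rich letters GGGCGG were in 5 of 7 (Fos, Fosb, Jun, Atf3 and Ier5) against 35.7% of promoters. The full AP-1 element TGACTCA (5.20% of promoters), the full cyclic AMP response element TGACGTCA (1.79%), which contains TGACG, and the CArG box that serum response factor binds (1.63%) were in 0 of the 7 windows. Bases outside these windows were not searched, so a gene without an element here may hold it further upstream or elsewhere. The window of Jund is centred on a RefSeq start 1210 bases upstream of the GENCODE start, and that of Atf3 lies inside its GENCODE gene body.

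Cells were put in a class when both of a pair of marker genes were above 0, and cells in more than 1 class were dropped. Of 14192 cells, 11296 fell in exactly 1 of the 8 classes, 783 in several and 2113 in none. Endothelium (Cldn5 and Flt1) held 774 cells, microglia (P2ry12 and Csf1r) 1635, pericytes (Kcnj8 and Vtn) 852, neuroblasts (Dlx1 and Sp9) 1809, oligodendrocyte precursors (Pdgfra and Lhfpl3) 2767 and astrocytes (Aqp4 and Gja1) 3409. Oligodendrocytes (Mag and Mobp, 27 cells) and ependymal cells (Foxj1 and Ccdc153, 23 cells) had fewer than 20 cells in at least 1 library and are given as counts. In each of the 6 larger classes all 8 markers of its own list were detected, and their summed level was highest in that class, such as 16634 to 18788 corrected counts per 1000000 (CPM) in endothelium against at most 147 CPM in the other 5. Each list includes the pair of genes that defined the class, so this is in part fixed by the rule. The files hold counts corrected for depth, 4422 to 8135 per cell, and corrected counts summed to 24612481 to 29581504 per library. Libraries shared 26 to 35 cell barcodes pairwise.

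Among the 6 larger classes, Fos levels were highest in endothelium and astrocytes and lowest in neuroblasts. Fos (ENSMUSG00000021250, chromosome 12, 85473890 to 85477273 in GRCm38, 4 exons) averaged 253, 219 and 218 CPM in the endothelial cells of libraries 1, 2 and 3. Microglia had 159, 90.7 and 111 CPM, with library 1 highest. Astrocytes had 236, 170.3 and 146 CPM, again with library 1 highest and with a range that overlapped both endothelium and microglia. Oligodendrocyte precursors followed at 56.4, 52.8 and 68.3 CPM, pericytes at 45.5, 51.6 and 42.9 CPM and neuroblasts at 10.9, 14.0 and 17.0 CPM. None of these last 3 classes overlapped with any other.

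The share of cells with Fos above 0 gave another order. It was 59.2% ± 4.88 in endothelium, 31.3% ± 4.10 in microglia, 14.4% ± 1.23 in pericytes, 5.02% ± 0.897 in neuroblasts, 22.4% ± 3.28 in precursors and 26.9% ± 3.93 in astrocytes (SD, n = 3 libraries). In erythroid cells, which lose their nucleus and were taken as a rough guide to the background from free RNA, it was 4.02% ± 2.98. Erythroid markers summed to 869502 to 905986 CPM in them. Little of their total was thus left for other genes, and their shares may not match the background in other classes. Median detected genes were 1866 per neuroblast and 241 per erythroid cell, and the neuroblast share is not read as above background. With each cell thinned to 4000 corrected counts the shares were 45.4% ± 2.98 in endothelium, 25.8% ± 4.14 in microglia and 21.5% ± 2.89 in astrocytes. The astrocyte range of mean levels overlapped that of endothelium, although fewer astrocytes carried the message.

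Fos-positive cells differed between classes in how much of the message they carried. The mean over positive cells was 2.54 corrected counts of Fos in endothelium, 2.06 in microglia, 1.88 in pericytes, 1.49 in neuroblasts, 1.46 in precursors and 4.23 in astrocytes. The 5% of cells with most Fos held 32.3% of the class's Fos level in endothelium, 41.9% in microglia, 65.3% in pericytes, 44.3% in precursors and 64.4% in astrocytes. In neuroblasts, where about 5% of cells had Fos, they held all of it. This measure rises as fewer cells have Fos, so neuroblasts and pericytes cannot be set against astrocytes by it. Microglia and precursors had Fos in 31.3% and 22.4% of cells, near the 26.9% of astrocytes, and their Fos was less concentrated. Astrocytes with 5 or more Fos counts made up 8.71%, 6.21% and 5.07% of the class in libraries 1, 2 and 3. The highest astrocyte had 43 Fos counts.

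Fosb, which encodes a close relative of Fos with long-lived splice forms in neurons, was sparse in the 6 larger classes. Its level (ENSMUSG00000003545, chromosome 7, 19302696 to 19310051) was 8.58, 8.33 and 10.2 CPM in endothelium, 7.38, 6.23 and 7.01 CPM in microglia and 4.68, 5.52 and 5.17 CPM in astrocytes. These 3 classes did not overlap one another, and the Fosb mean over all classes, 4.17 CPM, was under the 10 CPM needed for the test between classes. Pericytes averaged 2.59 ± 1.11 CPM, precursors 0.771 ± 0.552 CPM and neuroblasts 0.613 ± 1.06 CPM, with Fosb in 2 of 1809 neuroblasts. No erythroid cell of 281 had Fosb, which allows a share of up to 1.07%.

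**Figure D1:**
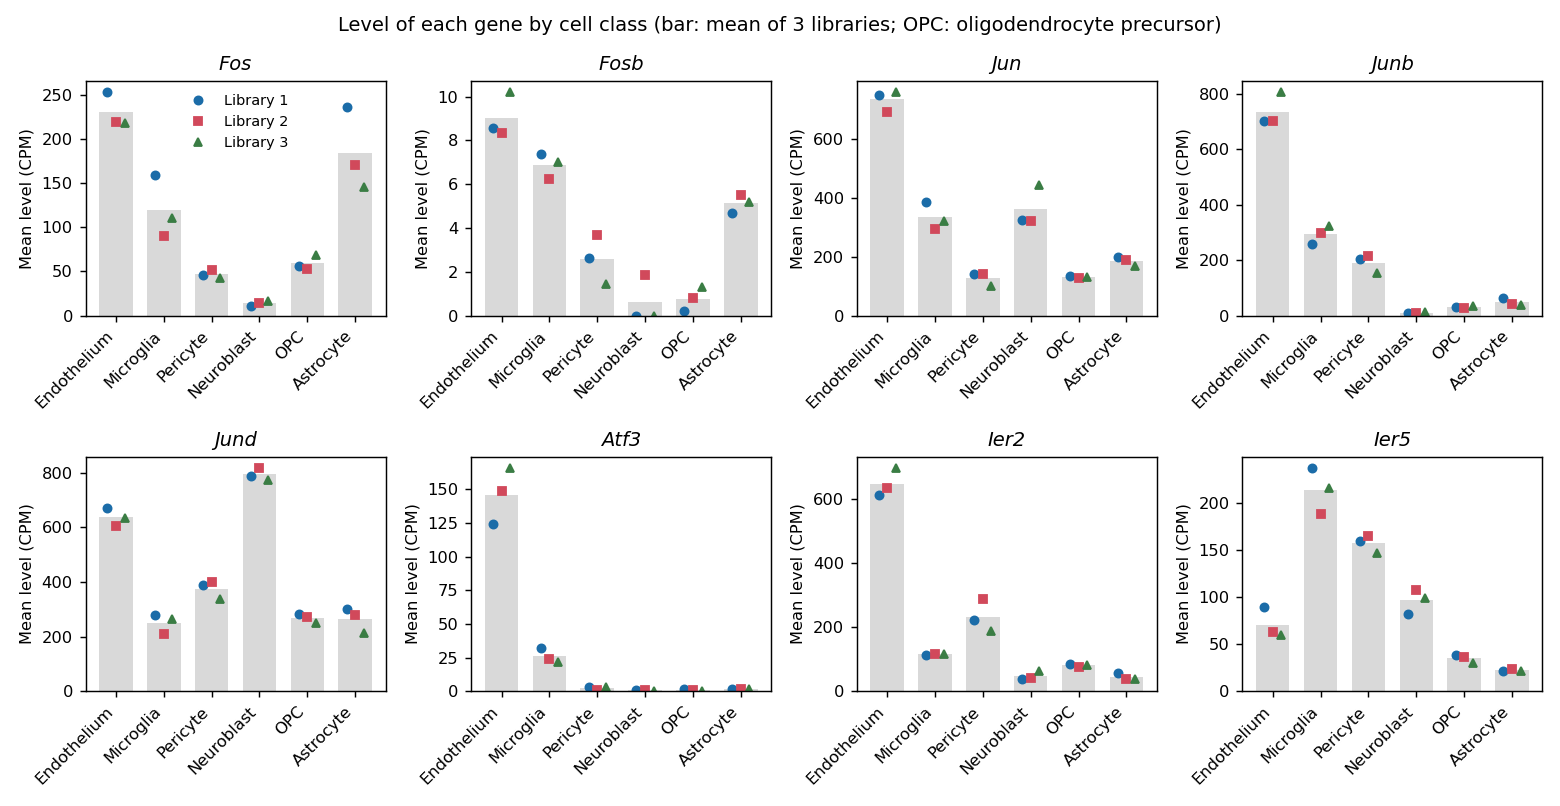
Mean level (CPM, linear axis from 0, scaled for each gene) of the 8 genes in 6 cell classes; points are libraries 1 to 3 and bars their mean. Among these classes endothelium is at or near the top for 7 genes, neuroblasts lead for Jund (794 CPM) and microglia for Ier5 (214 CPM).

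The Jun genes split by class. Jun (ENSMUSG00000052684, chromosome 4, 95049034 to 95052222, 1 exon), the usual partner of Fos in AP-1, reached 750.1, 692 and 758 CPM in endothelium and 95.9% ± 0.960 of its cells. Neuroblasts had 323, 321 and 444 CPM and microglia 386, 294 and 322 CPM, and these classes overlapped. Astrocytes lay below both at 198, 189.9 and 167 CPM. Precursors at 134, 127 and 131 CPM and pericytes at 143, 142 and 99.3 CPM overlapped at the bottom. Neuroblasts, whose Fos share was near that of erythroid cells, thus had Jun in 64.3% ± 2.24 of their cells, against 3.30% ± 3.60 of erythroid cells.

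Junb (ENSMUSG00000052837, chromosome 8, 84974484 to 84978718, 1 exon), a Jun protein that can restrain Jun in dividing cells, separated vessel and immune cells from neural cells. Its level was 702, 699.7 and 805 CPM in endothelium, 259.7, 299 and 324 CPM in microglia and 205, 214 and 154 CPM in pericytes. Astrocytes had 63.4, 42.3 and 39.5 CPM, precursors 30.5, 25.9 and 35.9 CPM and neuroblasts 10.5, 10.4 and 11.4 CPM. The 6 classes formed an order without overlap between neighbours. Junb was in 5.01% ± 0.574 of neuroblasts and in 4.93% ± 2.20 of erythroid cells, so the neuroblast share is not read as above background.

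Jund (ENSMUSG00000071076, chromosome 8, 70698949 to 70700616, 1 exon), the Jun gene known for steady expression, was highest in neuroblasts among the 6 larger classes. They had 789.9, 818 and 774 CPM, above the 671, 606 and 633 CPM of endothelium and the 389.7, 401 and 337 CPM of pericytes. Microglia (279, 209.7 and 264 CPM), precursors (284, 272 and 249 CPM) and astrocytes (302, 281 and 213 CPM) overlapped one another. Jund was in 91.5% ± 2.09 of neuroblasts, 96.1% ± 1.27 of endothelial cells and 73.1% ± 4.60 of astrocytes, and in 23.8% ± 5.14 of erythroid cells.

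Atf3 (ENSMUSG00000026628, chromosome 1, 191170296 to 191218039), a stress-induced factor that pairs with Jun and is known mainly as a repressor, was mainly detected in endothelium and microglia among the 6 classes. Its level was 124, 149 and 166 CPM in endothelium and 32.1, 23.8 and 21.9 CPM in microglia. It averaged 2.71 ± 1.39 CPM in pericytes, 0.796 ± 0.440 CPM in neuroblasts, 0.895 ± 0.667 CPM in precursors and 1.74 ± 0.152 CPM in astrocytes. The share of cells with Atf3 was 54.3% ± 6.52 in endothelium, 9.31% ± 1.63 in microglia and 1.09% ± 0.0622 in astrocytes, and 0 of 281 erythroid cells had it.

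Ier2 and Ier5, related nuclear proteins of the early response, differed in where they were high. Ier2 (ENSMUSG00000053560, chromosome 8, 84661331 to 84662852) was at 612, 633 and 697 CPM in endothelium, 222, 287 and 187 CPM in pericytes and 114, 115 and 117 CPM in microglia. Precursors (84.9, 76.8 and 82.6 CPM) came next, and neuroblasts (38.3, 42.1 and 62.3 CPM) and astrocytes (58.1, 39.9 and 38.6 CPM) overlapped at the bottom. Its gene body lies 311631 bases from that of Junb. Ier5 (ENSMUSG00000056708, chromosome 1, 155096361 to 155099636), known as a partner of the heat shock factor HSF1, was highest in microglia at 237, 188 and 216 CPM. Pericytes followed at 159, 165 and 147 CPM, then neuroblasts at 82.0, 108 and 99.0 CPM, which overlapped endothelium at 90.0, 62.6 and 59.4 CPM. Precursors had 38.3, 36.9 and 30.3 CPM and astrocytes 21.8, 23.5 and 21.5 CPM.

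Between-class differences were tested with limma on log2(mean CPM + 10) of the 6 classes in each library, with library as a block, over 9761 genes and with Benjamini-Hochberg adjusted p under 0.05. The 5 comparisons with astrocytes share their astrocyte samples. Each gene has 1 spread estimate for all 6 classes, after the library block, so its SE is the same in every comparison. For Fos the SD over libraries on this scale was 0.34 in astrocytes and 0.11 in pericytes. Fosb was below the filter, so 7 of the 8 members were tested, and Atf3 passed the filter only through endothelium (6.41 CPM without it), so its differences from endothelium were favoured by the filter, and its values there are a description with no test.

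Endothelium, the lining of the vessels, was higher than astrocytes in 5 of the 6 members tested beside Atf3 and lower in 0. Among all genes 31.2% were higher and 44.2% lower, 75.4% in all. The median log2 fold of the 6 was 1.62 against -0.13 over all genes. The log2 folds were 3.69 ± 0.14 (SE) for Junb and 3.58 ± 0.15 for Ier2, with adjusted p of 1.67e-15 and 1.19e-14. Jun followed at 1.94 ± 0.12 (adjusted p = 1.33e-11), Ier5 at 1.30 ± 0.12 (4.08e-09) and Jund at 1.25 ± 0.09 (1.87e-10). For these 5 genes the libraries of endothelium and astrocytes did not overlap. Atf3 averaged 146 ± 21.1 CPM in endothelium and 1.74 ± 0.152 CPM in astrocytes, a log2 fold of 3.73 with the added 10 CPM and a plain ratio of 84.1. Fos, at 0.33 ± 0.16, did not pass (adjusted p = 0.0602), and its ranges overlapped; without library 1, where astrocyte Fos was highest, it was 0.45 ± 0.14 (adjusted p = 0.0107), and it also passed with a pseudocount of 50 CPM, with centring and in a fit of both classes alone (adjusted p over all alternatives 0.00135 to 0.240). All 5 erythroid markers were detected in both classes, summing to 19287 to 22334 CPM in endothelium and 4739.6 to 8391 CPM in astrocytes. Hemoglobin genes took 1.94%, 2.22% and 1.92% of endothelial corrected counts, against 0.545%, 0.837% and 0.473% in astrocytes. With cells of 5% hemoglobin or more and cells of other gates dropped, every member kept its call and direction, with Junb at 3.73 and Jun at 1.94.

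Microglia, the resident macrophages of the brain, were higher than astrocytes in 5 members and lower in 1, where 25.3% of all genes were higher and 51.3% lower, 76.7% in all. The median log2 fold was 1.19 over the 7 members, 1.0 without Atf3, and -0.26 over all genes. Ier5 had the largest fold at 2.79 ± 0.12 (adjusted p = 1.94e-14), then Junb at 2.40 ± 0.14 (2.37e-12) and Atf3 at 1.60 ± 0.12 (1.36e-10). This order depends on the added 10 CPM: the plain ratio of mean levels was 14.9 for Atf3, 9.60 for Ier5 and 6.08 for Junb. Ier2 was higher by 1.19 ± 0.15 (adjusted p = 4.46e-07) and Jun by 0.81 ± 0.12 (5.80e-06). Fos was lower, at -0.59 ± 0.16 (adjusted p = 0.00201), but its libraries overlapped, and the call was lost without library 2 (-0.46, adjusted p = 0.0548) and when folds were centred on the median gene (-0.24, adjusted p = 0.169, the highest of a range that starts at 9.26e-06 over the alternatives). Jund was at -0.07 ± 0.09 (adjusted p = 0.497), but lower without library 3 (-0.26, adjusted p = 0.0108) and higher when centred (0.28, adjusted p = 0.0206), with adjusted p up to 0.729 over the alternatives. Border macrophage markers summed to 502 to 851 CPM in the microglia class, with all 5 of the list detected, against 1.42 to 19.3 CPM in astrocytes; with gated border macrophages and other cells dropped every member kept its call and direction.

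**Figure D2:**
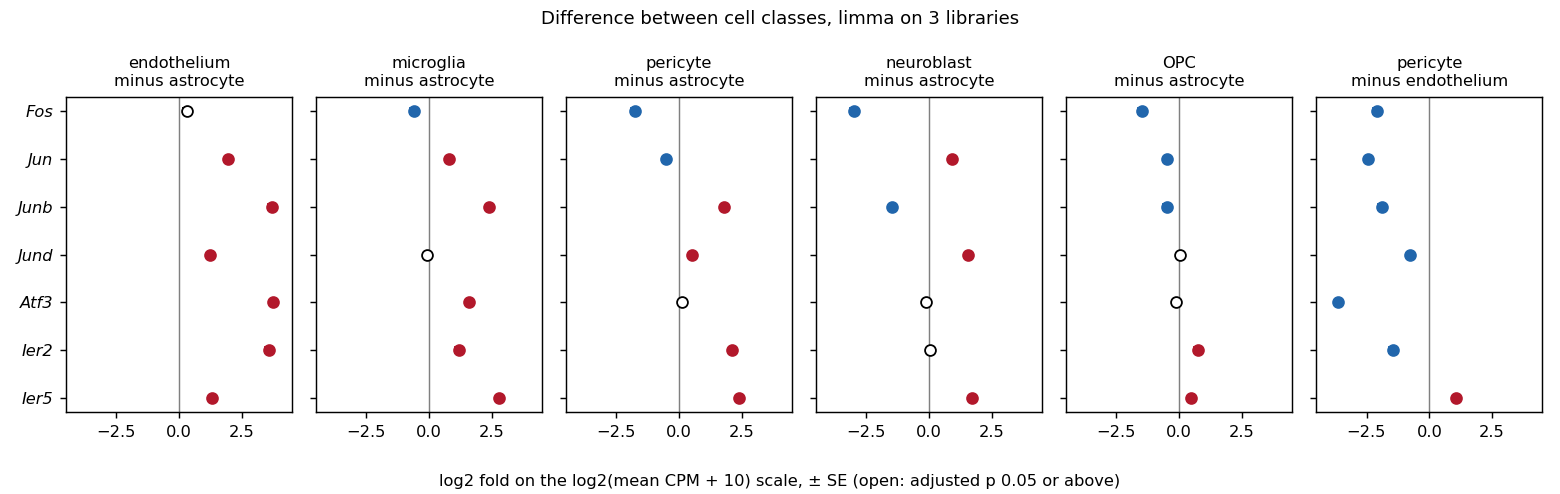
Log2 fold of the 7 tested genes in 6 comparisons, on the log2(mean CPM + 10) scale; red is higher, blue lower and open not called, and SE bars (0.09 to 0.16) are mostly hidden by the symbols. Junb, Ier2 and Ier5 are to the right in endothelium, microglia and pericytes, and Fos is far to the left in neuroblasts (-3.0). Atf3 passed the filter only through endothelium, so its colours in comparisons with endothelium are not read as calls.

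Pericytes, which wrap the capillaries, were higher than astrocytes in 4 members and lower in 2, where 34.1% of all genes were higher and 35.0% lower, 69.1% in all. The median log2 fold was 0.50 over the 7 members, 1.15 without Atf3, and -0.01 over all genes. Ier5 was higher by 2.37 ± 0.12 (adjusted p = 3.71e-13), Ier2 by 2.12 ± 0.15 (9.12e-11), Junb by 1.79 ± 0.14 (3.31e-10) and Jund by 0.50 ± 0.09 (9.00e-05). Fos was lower, at -1.75 ± 0.16 (adjusted p = 3.38e-09), and Jun at -0.51 ± 0.12 (0.00112). Atf3, at 0.11 ± 0.12, did not pass (adjusted p = 0.425). Pericytes thus combined high Junb and Ier genes with low Fos and Jun.

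Set against endothelium, pericytes were lower in 5 of the 6 members tested beside Atf3 and higher in 1, where 24.2% of all genes were lower and 40.8% higher, 65.0% in all. The median log2 fold was -1.68 over the 6 members and 0.13 over all genes. Jun was at -2.45 ± 0.12 (adjusted p = 4.88e-13), Fos at -2.09 ± 0.16 (2.76e-10) and Junb at -1.90 ± 0.14 (1.59e-10). Ier2 was at -1.46 ± 0.15 (adjusted p = 3.79e-08) and Jund at -0.75 ± 0.09 (6.48e-07). Ier5 ran the other way, higher in pericytes by 1.07 ± 0.12 (adjusted p = 1.34e-07). Atf3 averaged 2.71 ± 1.39 CPM in pericytes and 146 ± 21.1 CPM in endothelium, a log2 fold of -3.62 with the added 10 CPM. Smooth muscle markers summed to 773 to 1388 CPM in the pericyte class, with all 5 detected, against 20.3 to 26.9 CPM in endothelium; with gated smooth muscle and other cells dropped every member kept its call and direction.

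Neuroblasts, the migrating precursors of inhibitory neurons, were higher than astrocytes in 3 members and lower in 2, where 31.2% of all genes were higher and 42.5% lower, 73.7% in all. The median log2 fold was 0.05 over the 7 members, 0.49 without Atf3, and -0.11 over all genes. Ier5 was higher by 1.71 ± 0.12 (adjusted p = 6.54e-11), Jund by 1.56 ± 0.09 (6.27e-12) and Jun by 0.92 ± 0.12 (1.17e-06). Fos was lower, at -3.0 ± 0.16 (adjusted p = 6.15e-13), and Junb at -1.47 ± 0.14 (6.34e-09). Ier2, at 0.05 ± 0.15 (adjusted p = 0.792), and Atf3, at -0.12 ± 0.12 (adjusted p = 0.362), did not pass, and Ier2 turned to -0.22 without library 3 and Atf3 to 0.16 when centred. Ier2 was in 17.6% ± 2.30 of neuroblasts and 2.52% ± 0.490 of erythroid cells. The neuroblast shares of Jun, Jund, Ier2 and Ier5 thus stood above the erythroid shares, while those of Fos and Junb were near them.

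Oligodendrocyte precursors were higher than astrocytes in 2 members and lower in 3, where 41.9% of all genes were higher and 21.0% lower, 62.9% in all. The median log2 fold was -0.11 over the 7 members, -0.22 without Atf3, and 0.15 over all genes. Ier2 was higher by 0.74 ± 0.15 (adjusted p = 0.000250) and Ier5 by 0.48 ± 0.12 (0.00153). Fos was lower, at -1.47 ± 0.16 (adjusted p = 7.69e-08), as were Jun at -0.47 ± 0.12 (0.00273) and Junb at -0.50 ± 0.14 (0.00331). Junb lost its call without library 1 (-0.33, adjusted p = 0.0844, the highest of a range from 2.04e-05 over the alternatives). Jund, at 0.03 ± 0.09 (adjusted p = 0.809), turned to -0.06 without library 3 and to -0.11 when centred, and Atf3 was at -0.11 ± 0.12 (adjusted p = 0.439).

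Centring every class on its median gene moved the median log2 fold over all genes against astrocytes by 0.17 in endothelium, 0.35 in microglia, 0.28 in neuroblasts and -0.14 in precursors. The split of all called genes then became 3852 higher and 3498 lower in endothelium (3050 and 4311 before centring), and 4130 and 3299 in microglia (2473 and 5012 before). In neuroblasts it became 4535 and 3073 (3043 and 4152 before), and in precursors 3024 and 2733 (4085 and 2050 before).

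Single cells were next described by how many of the 8 genes each carried. Endothelial cells carried a mean of 5.36 ± 0.0357 (SD, n = 3 libraries), microglia 3.12 ± 0.228, pericytes 3.06 ± 0.146, neuroblasts 2.18 ± 0.0769, precursors 2.00 ± 0.0798 and astrocytes 2.01 ± 0.125. The share with 5 or more was 78.2% ± 1.55 of endothelial cells, 19.5% ± 4.30 of microglia, 12.8% ± 1.65 of pericytes, 1.01% ± 0.386 of neuroblasts, 2.35% ± 0.0866 of precursors and 3.90% ± 0.618 of astrocytes. All 8 genes were at 0 in 1 of 774 endothelial cells and 305 of 3409 astrocytes. Endothelial cells were spread over the counts: 14.7% carried 4 of the genes, 26.7% carried 5, 36.0% carried 6 and 14.0% carried 7. Erythroid cells carried none of them in 187 of 281 cells. Median detected genes per cell were 2848 in endothelium, 1893 in microglia, 2464 in pericytes, 1866 in neuroblasts, 2652 in precursors and 2756 in astrocytes.

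**Figure D3:**
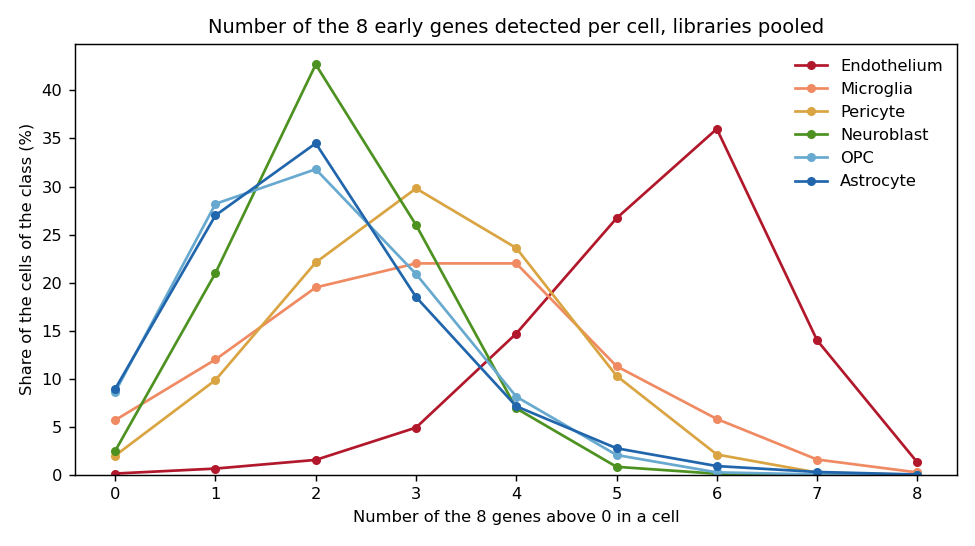
Share of the cells of each class (%, libraries pooled) with 0 to 8 of the genes above 0. The endothelial curve peaks at 6 genes (36.0% of cells), the astrocyte curve at 2 (34.5%).

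Co-detection within a class was measured as the odds ratio of finding both genes of a pair in the same cell, for pairs in which each gene was in at least 20 cells of every library. Cells of a library share depth, so these are descriptions. In astrocytes Fos and Fosb had odds ratios of 41.8, 18.2 and 46.5 in libraries 1, 2 and 3, and 76 of the 83 Fosb-positive astrocytes also had Fos. Fosb and Junb had 19.1, 19.0 and 20, Fos and Junb 5.18, 6.45 and 5.0, and Junb and Ier2 5.08, 4.21 and 2.70. With at least 2 counts of each gene required, the geometric mean of the odds ratio for Fos and Junb was 37.4 and for Fos and Ier2 19.7, against 5.51 and 3.14 at 1 count. Within quartiles of detected genes the pooled value for Fos and Fosb was 35.1, close to the 32.8 without them. Jun and Ier2 had 0.830, 1.96 and 1.28, so Jun did not join this group in every library.

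Astrocytes with 5 or more Fos counts, a limit set after values were seen, were 227 cells and carried the same genes more often. Just under the limit 39 astrocytes had 4 counts. Of the 227, 63.0% had Junb, 60.4% Ier2 and 24.7% Fosb, against 6.57%, 11.8% and 0.280% of the 2498 astrocytes without Fos. Egr1, a zinc-finger early gene outside the families, was in 63.0% and 4.64%. Jun was in 66.1% and 53.4%, Jund in 79.7% and 71.9% and Ier5 in 16.7% and 11.4%, but Jund in library 3 (62.5% and 66.9%) and Ier5 in library 1 (11% and 11.3%) ran the other way. Median detected genes were 2873 in the cells with 5 or more Fos counts and 2722 in those without Fos.

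Astrocyte levels were also given by Gfap, the intermediate filament gene high in astrocytes at cortical borders, a split made after its values were seen. Fos averaged 408, 316 and 228 CPM in astrocytes with Gfap above 0 in libraries 1, 2 and 3, against 112, 63.1 and 98.0 CPM in astrocytes with Gfap at 0. Junb had 117, 69.6 and 55.3 CPM with Gfap, against 24.6, 22.2 and 30.2 CPM without. Ier2 had 83.4, 56.1 and 50.6 CPM with Gfap, against 39.8, 27.9 and 31.4 CPM without. For these 3 genes and Fosb the libraries did not overlap, while Jun, Jund, Atf3 and Ier5 overlapped. The split held 1390 cells with Gfap and 2019 without, with medians of 2774 and 2740.0 detected genes.

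In endothelium, where most members were in nearly every cell, the odds ratios rest on the few cells that lacked a gene. Jun was in 279 of 288, 283 of 298 and 180 of 188 endothelial cells, and the odds ratios for Jun and Ier2 were 28.5, 14.4 and 27.5. Fos and Junb had 4.33, 7.67 and 27.5, and Junb and Ier2 6.28, 6.00 and 20.8. Endothelial cells without Jun also had fewer detected genes, a median of 2490.5 against 2850.0 in cells with Jun. The median over 21 pairs was 3.10, and 2.29 within quartiles of detected genes.

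The other classes had lower medians than endothelium. In microglia the median odds ratio over 21 pairs was 1.57. Those pairs were led by Fos and Junb (3.02, 2.26 and 2.24) and Junb and Ier5 (2.10, 2.78 and 2.13). Pairs with Fosb were left out there, because Fosb was in 15 and 19 microglia of libraries 1 and 2. For these few cells, Fos and Fosb had odds ratios of 4.90, 3.75 and 9.44, and Fosb and Junb 7.45, 2.91 and 4.46. In pericytes it was 1.22 over 15 pairs, led by Fos and Jun (1.64, 2.54 and 2.80). In precursors it was 1.23 over 15 pairs, led by Fos and Junb (1.60, 2.70 and 2.03) and Fos and Ier2 (2.20, 1.93 and 1.66). In neuroblasts it was 1.47 over 10 pairs; Jun and Jund had 2.48, 1.96 and 1.8, while Jun and Ier5 had 0.720, 0.995 and 1.06. In astrocytes the median over 21 pairs was 1.57, so only a few pairs there, those among Fos, Fosb, Junb and Ier2, were far above it.

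**Figure D4:**
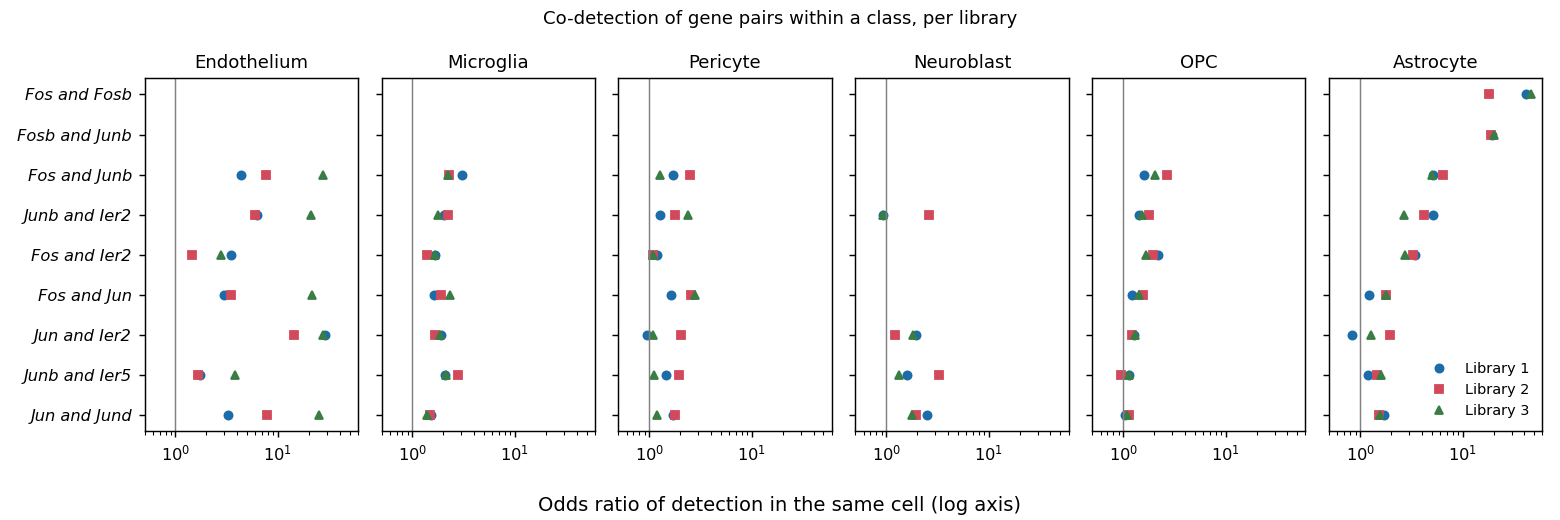
Odds ratio (log axis) of detecting both genes of 9 pairs in the same cell, by class; points are libraries 1 to 3 and the line marks 1. Pairs of Fos, Fosb, Junb and Ier2 lie far right in astrocytes (Fos and Fosb 18.2 to 46.5), and Jun and Ier2 do so in endothelium (14.4 to 28.5); pairs without points had under 20 positive cells in a library.

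Astrocyte levels of 4 members, Fos, Junb, Ier2 and Jund, varied between libraries more than those of nearly all genes tested. Over libraries the SD of log2(mean CPM + 10) in astrocytes was 0.34 for Fos, 0.31 for Junb, 0.27 for Ier2 and 0.25 for Jund, against a median of 0.07 over all genes tested. At least 99.0% of genes tested varied less than each of these, and all were highest in library 1 and lowest in library 3. Jun, at 0.12, varied more than 84.9% of genes and was also highest in library 1 and lowest in library 3. Ier5, at 0.05, was below the median, and Fosb, which was not tested, was lowest in library 1 (4.68, 5.52 and 5.17 CPM). In microglia Fos had an SD of 0.38, above 98.8% of genes, and was again highest in library 1.

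Dividing cells, with Mki67 and Top2a above 0, were set against cells of the same class with both at 0, in the 5 classes with at least 20 dividing cells in every library. Both sides came from the same 3 libraries, too few for a paired exact test to reach a small p, so no p is given. Overlap is judged over the libraries of both sides, without pairing them. Jund was at a lower level in the dividing cells of each of the 5 classes, in every library. In neuroblasts it was at 571, 592 and 549.9 CPM in dividing cells and 894, 930.5 and 808 CPM in non-dividing cells. In pericytes it was at 219.6, 198 and 171 CPM in dividing cells and 417, 416 and 348 CPM in non-dividing cells. In astrocytes it was at 179, 123 and 121 CPM in dividing cells and 308, 287 and 217 CPM in non-dividing cells. These 3 classes and precursors (log2 difference -0.40 ± 0.17, SD) did not overlap, and microglia (-0.43 ± 0.11) did.

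Jun was also at a lower level in dividing cells of 3 of these classes without overlap. Neuroblast Jun was at 215, 221 and 205 CPM in dividing cells and 372, 378 and 483 CPM in non-dividing cells, and the log2 difference was -0.81 ± 0.53 in pericytes and -0.30 ± 0.24 in precursors. In microglia the difference had the other sign, 0.37 ± 0.19, also without overlap. Ier5 was at a higher level in dividing precursors, at 75.4, 64.0 and 64.4 CPM against 33.0, 32.0 and 24.8 CPM in non-dividing ones. Fos overlapped between dividing and non-dividing cells in all 5 classes.

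**Figure D5:**
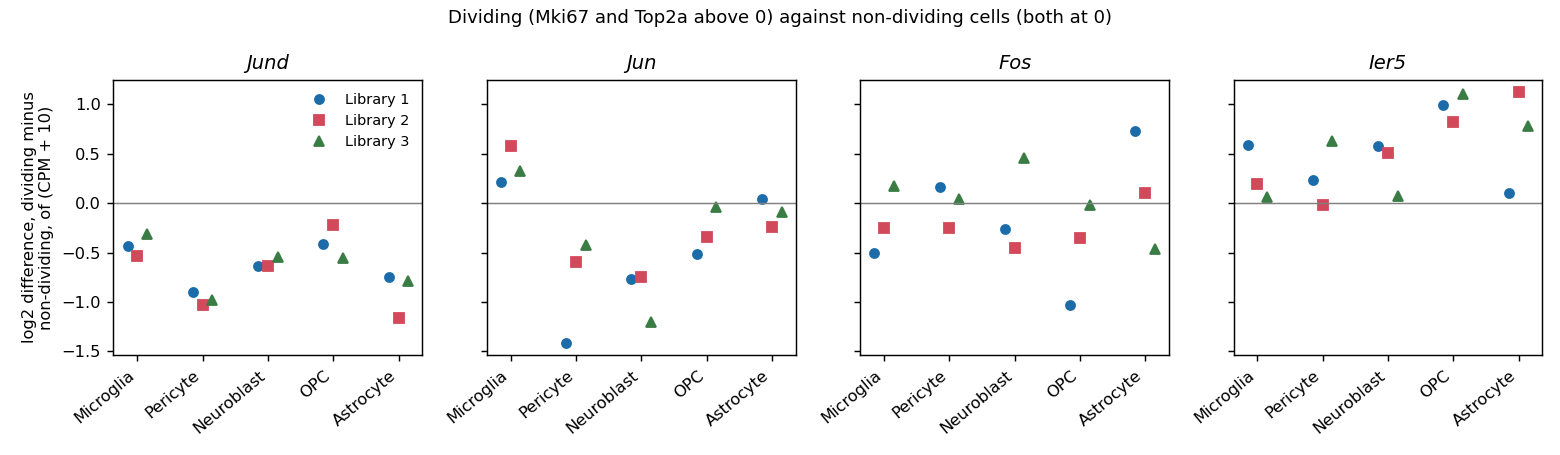
Log2 difference of mean CPM + 10 between dividing and non-dividing cells of 5 classes, for Jund, Jun, Fos and Ier5; points are libraries 1 to 3. All 15 Jund points lie below 0, and the Ier5 points of precursors lie at 0.82 to 1.10.

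Small classes are given as counts. Of 27 oligodendrocytes, 0 had Fos, Fosb, Junb, Atf3 or Ier5, which allows a share of up to 11.1% for each, while 8 had Jun, 10 had Jund and 1 had Ier2. All 23 ependymal cells had Jund (exact 95% interval 85.2 to 100%), 17 had Fos and 7 had Fosb, but 21 of them came from library 1. Of 47 excitatory neurons (Neurod2 and Neurod6), 39 had Jund, 21 Ier5, 9 Jun, 2 Fos and 1 Junb. Among 72 fibroblasts (Dcn and Col1a1) Fos was at 57.6, 226 and 444 CPM in libraries 1, 2 and 3 and Junb at 77.6, 203 and 472 CPM, a spread of the order of the levels themselves. Intervals and limits cover counting error only.

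The genes whose class profile was most like that of a member, by Pearson r of log2(mean CPM + 10) over the 18 class-by-library means, differed between members. They were Aldh9a1 for Fos (0.972), Mfng for Jun (0.959), Elk3 for Junb (0.992), Mob3b for Jund (0.954), Pik3r6 for Atf3 (0.991), Plk3 for Ier2 (0.982) and Actb for Ier5 (0.936). Libraries share classes, so 18 means are not independent points. Between members r ran highest for Junb and Ier2 (0.88) and Junb and Atf3 (0.84), and was -0.34 for Fos and Jund. Across single endothelial cells, the summed level of the 8 genes was most like Klf2, a flow-induced factor, with a Spearman rho of 0.51, 0.59 and 0.53 in libraries 1, 2 and 3. Nfkbia, the inhibitor of NF-kappaB (0.57, 0.54 and 0.52), and Btg2, an antiproliferative early gene (0.44, 0.52 and 0.58), came next. In neuroblasts the leading gene was Stmn4, a tubulin-binding stathmin, at 0.38, 0.40 and 0.38.

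Counts over other gene lists are to be read against all genes: 31.2% were higher and 44.2% lower than in astrocytes in endothelium, 25.3% and 51.3% in microglia, 34.1% and 35.0% in pericytes, 31.2% and 42.5% in neuroblasts, and 41.9% and 21.0% in precursors. Median log2 folds over all genes were -0.13, -0.26, -0.01, -0.11 and 0.15 in the same order. In pericytes 40.8% of all genes were higher and 24.2% lower than in endothelium. Endothelium was also higher than astrocytes in most other immediate early genes. Of 34 listed, 28 were tested: against astrocytes 23 were higher and 4 lower in endothelium, 14 and 10 in microglia, 13 and 10 in pericytes, 3 and 18 in neuroblasts, and 9 and 15 in precursors. Pericytes were higher than endothelium in 3 and lower in 23. The median log2 folds were 1.79 in endothelium, 0.31 in microglia, 0.16 in pericytes, -0.56 in neuroblasts and -0.33 in precursors. In endothelium the leaders were Klf2 at 3496 ± 413 CPM against 15.9 ± 2.36 CPM in astrocytes, the kinase Sgk1 at 549 ± 133 CPM against 10.1 ± 1.37 CPM, and the kinase Plk2 at 665 ± 31.5 CPM against 16.2 ± 1.51 CPM. In precursors Egr1 stood out at 280.0 ± 24.3 CPM against 29.5 ± 1.07 CPM in astrocytes (log2 fold 2.87 ± 0.14, adjusted p = 6.65e-13), with Fos lower there. Id1 and Id3, inhibitors of basic helix-loop-helix factors, were lower than in astrocytes in microglia (-3.73 and -5.19), pericytes (-2.62 and -2.72), neuroblasts (-3.76 and -5.20) and precursors (-3.83 and -3.39).

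Other factors of the bZIP class, which can pair with the members, were mixed. Of 17 tested, 8 were higher and 4 lower than in astrocytes in endothelium, 8 and 5 in microglia, 6 and 7 in pericytes, 6 and 8 in neuroblasts, and 4 and 9 in precursors. The medians were 0.01, 0.19, -0.19, -0.24 and -0.30 in the same order, and the pericyte and neuroblast counts were near the shares over all genes. Against endothelium, pericytes had 5 higher and 6 lower. Endothelium was led by the small Maf protein Maff (log2 fold 3.18 ± 0.12) and by Crem (1.98 ± 0.12), a cyclic AMP responsive factor. Microglia were led by Maf (4.31 ± 0.12), a macrophage identity factor, and Cebpb (2.95 ± 0.12), which acts in inflammation. In neuroblasts and precursors Nfe2l2, the oxidative stress factor, was lower than in astrocytes by the most (-2.18 ± 0.10 and -2.55 ± 0.10).

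Among 20 tested upstream kinases and factors, 12 were higher and 3 lower than in astrocytes in endothelium, 6 and 5 in microglia, 9 and 2 in pericytes, 5 and 10 in neuroblasts, and 9 and 3 in precursors. The medians were 0.46, 0.05, 0.18, -0.24 and 0.17 in the same order, and the neuroblast and precursor counts were near the shares over all genes. Elk3, an ETS factor that works with serum response factor, was at 248 ± 5.96 CPM in endothelium, 106 ± 21.3 CPM in microglia and 82.0 ± 9.24 CPM in pericytes, against 23.5 ± 2.17 CPM in astrocytes. Set against endothelium, 4 were higher and 10 lower in pericytes. Mapk3, the kinase ERK1, was higher in endothelium by 2.12 ± 0.11. Mapk8, the kinase JNK1 that phosphorylates Jun, was higher in neuroblasts, at 112 ± 9.32 CPM against 42.5 ± 4.89 CPM in astrocytes (1.22 ± 0.10). Camk2d (-2.19 ± 0.14) and Map2k1 (-1.26 ± 0.11) had larger folds in neuroblasts and were lower than in astrocytes.

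Feedback genes, which dampen the signals that induce the members, gave 6 higher and 4 lower of 12 tested in endothelium, 4 and 7 in microglia, 4 and 4 in pericytes, 1 and 9 in neuroblasts, and 4 and 5 in precursors. The medians were 0.28, -0.53, 0.07, -0.65 and -0.07 in the same order, and the microglial and pericyte counts were near the shares over all genes. Of these 12, pericytes had 5 higher and 6 lower than endothelium. Dusp1, a phosphatase that switches off MAP kinases, was at 1470.0 ± 164 CPM in endothelium against 68.8 ± 4.57 CPM in astrocytes. The Sprouty inhibitor Spry1 was higher in pericytes (3.64 ± 0.10) and precursors (3.05 ± 0.10), and Spry2 was lower in endothelium (-3.42 ± 0.10) and microglia (-3.88 ± 0.10).

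Of 4 tested neuronal activity genes, 0 were higher and 3 lower in endothelium, 1 and 3 in microglia, 0 and 3 in pericytes, 0 and 4 in neuroblasts, and 2 and 1 in precursors, each against astrocytes, too few to set against the shares over all genes. In pericytes 0 were higher and 1 lower than in endothelium. Nptx2, a synaptic pentraxin, was higher in precursors at 61.8 ± 1.52 CPM against 6.99 ± 0.798 CPM. Of 12 tested AP-1 target genes, 6 were higher and 2 lower in endothelium, 7 and 4 in microglia, 5 and 2 in pericytes, 0 and 4 in neuroblasts, and 3 and 4 in precursors. The medians were 0.58, 0.75, 0.15, -0.05 and 0.03 in the same order. Of the 12, 4 were higher and 6 lower in pericytes than in endothelium. Microglia were led by Spp1 (4.79 ± 0.62), whose level in them was 2060.3 ± 2627 CPM, a spread above its mean, and the chemokine Ccl3 (4.15 ± 0.11), and pericytes by the protease Mmp9 (3.34 ± 0.19).

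Heat and dissociation stress genes, which also respond to tissue handling, moved less uniformly. Of 15 tested, 6 were higher and 8 lower than in astrocytes in endothelium, 7 and 4 in microglia, 5 and 4 in pericytes, 7 and 6 in neuroblasts, and 7 and 5 in precursors, with medians of -0.34 to 0.21. Pericytes were higher than endothelium in 9 and lower in 3. The metallothionein Mt1 was lower than in astrocytes in all 5 classes, and the chaperone gene Hspb1 was higher in endothelium (4.70 ± 0.10) and pericytes (3.28 ± 0.10). Microglia were led by Hspa1a, at 157 ± 68.4 CPM against 3.02 ± 1.58 CPM in astrocytes (3.60 ± 0.22). The preparation of single cells is not described in the sources used here, and the part of tissue handling in the members' levels was not tested.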

How the data were processed

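Single-cell libraries of 3 replicates of 1 group were analysed. The tools listed are CASAVA 1.8, Cell Ranger and Seurat, and the build is mm10, per the submitters' processing notes; roles and filters are not given in the sources used here. The deposited values are natural log (ln) values made by the authors: each is ln(1 + a whole number), within 2.05e-11. Those whole numbers vary little in total per cell, so they are read as depth-corrected counts; how the correction treats zeros and the depth before it are unknown, and no raw-count model was fitted. Each cell was scaled to CPM and cells of a class were averaged per library. limma 3.58.1 in R 4.3.3 was fitted to log2(mean + 10 CPM), trend on, library as a block, 10 residual degrees of freedom, on the 9761 genes averaging 10 CPM or more over 18 class-by-library means. The added 10 CPM understates folds of low genes. The method was tested on simulated data.

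Members, lists and tests were chosen with earlier results of these data known. From each of 7 lists the 3 genes with the largest fold among those past the threshold and moving alike in 3 libraries could be named; the text gives some of them. Scrublet in scanpy 1.11.5 marked 287 cells, 76 of them in a class; they were kept, and dropped as an alternative. The share limit for a count of 0 is 3 counts of the total, and intervals are exact (Clopper-Pearson, 95%). Promoters came from RefSeq (7 of 8 members matched; Ier2 did not), positions from GENCODE on GRCm38. Alternatives changed the pseudocount, filter, centring, block, classes, weights, gates, doublets and library; dropping other-gate and hemoglobin cells, the motifs TGACG and TATAAA, the Gfap split and the limit of 5 Fos counts were chosen after seeing the data.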

Additional observations from a re-analysis of the deposited data

How the results depend on the processing

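Across 13 alternatives the number of members called stayed within 1.5 times of that reported in all 6 comparisons (78 of 78 values). The number of genes called did so too. With only 7 members tested, a rise in members called could not pass that limit, so only a large fall could have shown. Leaving out each library in turn gave 6 to 7 members called in endothelium, 5 to 7 in microglia, 6 to 6 in pericytes, 5 to 5 in neuroblasts and 4 to 5 in precursors against astrocytes, and 7 to 7 in pericytes against endothelium. These counts include Atf3; without it 5 of 6 members were called in endothelium, as an alternative chosen after seeing the data. Of 543 alternative member folds 529 kept their direction and side of the threshold. The sign turned for Jund in microglia when centred (0.28), Jund in precursors when centred (-0.11) and Atf3 in neuroblasts when centred (0.16). It also turned when a library was left out for Jund in microglia (-0.26 to 0.09), Jund in precursors (-0.06 to 0.08) and Ier2 in neuroblasts (-0.22 to 0.32); none of these folds was called as reported, and the cause was not tested. Without the replicate block no member call changed, and the endothelial count, with Atf3 included, stayed at 6. Thinning cells to 4000 corrected counts moved 43 of 48 shares by more than their SD, by construction, and leaving out the highest 1% of cells moved 23 of 48 levels. Oligodendrocyte and ependymal comparisons (3 of 9 planned) were not made because a library held under 20 such cells; the protein comparison was not made. Depth before correction is unknown, so shares near the erythroid background cannot be read as expression.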

Other observations

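Cells outside the 8 classes also carried the members. The 25 border macrophages (Pf4 and Mrc1) had Fos in 13 cells and Jun in 14, and the 45 smooth muscle cells (Acta2 and Myh11) had Fos in 14 and Ier5 in 27. Microglia in which Fos reached 5 or more counts were 4.82%, 1.04% and 1.71% of the class in libraries 1, 2 and 3; Junb was in 89.2% of these 37 cells and in 49.3% of the 1130 microglia without Fos, more often in each library. Atf3 was in 25%, 0% and 72.7% of them (20, 6 and 11 cells), against 9.74%, 8.83% and 6.08% of microglia without Fos, so the libraries differed in direction. In endothelium Atf3 was in 73.7% of the 57 cells with 5 or more Fos counts and in 44.2% of the 310 without Fos, and Fosb in 28.1% and 0.645%.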
